A study of Mus musculus with 8 samples.

Results

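The natriuretic peptide system was examined in whole mouse embryos at E9.0 that lacked Arid3b, a DNA-binding protein of the ARID family, and in wild-type embryos of the same stage. Its members are the peptide genes Nppa, Nppb and Nppc, the receptor genes Npr1, Npr2 and Npr3, and Corin, and they were chosen by name from the arrays' own annotation after the difference of Nppa and Nppb between the genotypes was known. These are 7 genes with 13 probes, of which 6 genes entered the fit over 17099 genes. Npr1 did not enter, because its single probe was well above background on too few arrays.

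The study hybridised RNA of 4 Arid3b-null pools and 4 wild-type pools, each of 3 to 4 whole embryos, to 1-colour Agilent arrays of 60-base probes, with 1 array per pool. The labels give no allele, strain, sex or litter, so p-values measure only the spread between these pools, which may share litters. RNA of a whole embryo mixes all tissues, and the heart is a small share of it. In such RNA, more cells of a type and more RNA per cell cannot be told apart.

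Natriuretic peptides are hormones that lower blood pressure and salt load through the second messenger cGMP. ANP (from Nppa) and BNP (from Nppb) are made by heart muscle and act on Npr1, CNP (from Nppc) is made by vessel walls and growing cartilage and acts on Npr2, and Npr3 removes all of them from the circulation. In the embryo Nppa is a widely used label of the chamber muscle of the heart, and Nppa and Nppb lie next to each other in the genome.

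The sequences through which the peptides and receptors were read are shown here, because most genes rest on a few 60-base probes and similar members could share signal. Nppa and Nppb each had a pair of probes, and the first sequence of Nppa and both of Nppb are given in the sense direction as the array files hold them.
Nppa A_51_P361340: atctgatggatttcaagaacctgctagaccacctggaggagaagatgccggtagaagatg
Nppb A_51_P426195: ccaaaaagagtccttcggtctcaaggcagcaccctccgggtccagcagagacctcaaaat
Nppb A_52_P559955: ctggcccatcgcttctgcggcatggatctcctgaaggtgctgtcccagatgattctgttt
Nppc A_51_P401894: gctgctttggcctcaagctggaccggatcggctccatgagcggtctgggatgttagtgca
Npr3 A_51_P247184: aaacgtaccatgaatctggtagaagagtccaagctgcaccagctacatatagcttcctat
The Nppb probes lie at chr4:146975922-146975981 and chr4:146975497-146975556, and the Nppa probe above spans chr4:146990480-146990642, which is 163 genomic bases for 60 probe bases. The second Nppa probe, A_52_P580582, lies at chr4:146991457-146991516. Nppc was read at chr1:86570336-86570395, Npr3 at chr15:11900163-11900222 and Corin at chr5:71671159-71671218, all on the minus strand. All probe positions are on the mm7 build named in the array files, and exon or UTR annotation of that build was not used here.

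The closest pair of probes between different members joined Npr1 to Npr2, both of which carry a guanylyl cyclase domain. Over the 40 bases in which the probes overlap, 34 are the same (85.0%), and these are in capitals below. The Npr1 probe spans chr3:90585984-90586477 on the minus strand, 494 genomic bases, and the Npr2 probe lies at chr4:43662168-43662227 on the plus strand.
Npr1 A_51_P182693: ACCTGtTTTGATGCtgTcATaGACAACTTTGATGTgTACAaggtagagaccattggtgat
Npr2 A_52_P489373: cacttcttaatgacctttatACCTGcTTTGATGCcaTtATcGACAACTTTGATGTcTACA
No other pair of probes of different members shared more than 51.9% of its overlapping bases. Nppa and Nppb were each read from separate stretches of their transcripts.

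Nppa and Nppb were the members whose levels stood apart between the genotypes over all pools. In every Arid3b-null pool both peptide genes lay above every wild-type pool, on each of their probes. Nppa averaged 2.54-fold and Nppb 3.02-fold over wild type, and without Arid3b-null pool 2, which was far above the other pools, the values were 2.05-fold and 2.34-fold. Since this difference is what brought the genes together, it is given as a description and without a test. Levels are log2 signals relative to the 75th percentile of the same array, and a difference of 1 is a doubling.

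Nppa, the gene of ANP, had levels of 3.88, 5.14, 3.95 and 3.94 in Arid3b-null pools 1 to 4 on probe A_52_P580582, against 2.67, 3.19, 2.99 and 2.70 in wild-type pools 1 to 4. The null pools other than pool 2 lay close together, more so than the wild-type pools. The mean was 4.23 ± 0.61 in Arid3b-null pools and 2.89 ± 0.25 in wild-type pools (SD, n = 4 each), a difference of 1.34 ± 0.29 (SE). Arid3b-null pool 2 alone was 4.77-fold over the wild-type mean, and the other null pools averaged 3.92 ± 0.04 (SD, n = 3), 1.04 above wild type. The lowest null pool exceeded the highest wild-type pool by 0.69, which is 1.62-fold.

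The second Nppa probe, A_51_P361340, gave the same order of groups. Its levels were 1.98, 3.44, 1.99 and 1.96 in Arid3b-null pools, against 0.74, 1.28, 0.93 and 0.68 in wild-type pools. Pool 2 was the highest pool of each genotype on both Nppa probes. The difference was 1.44 ± 0.34 (SE), or 2.70-fold, and 1.07 (2.10-fold) without null pool 2, whose own level was 5.78-fold over the wild-type mean.

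Each Nppa probe was printed 10 times on every array, so the error of the reading itself can be seen. The spots of A_52_P580582 averaged a signal of 22444, 45207, 24224 and 23550 in Arid3b-null pools and 10831, 12237, 13302 and 9669 in wild-type pools before scaling, and no probe was saturated. In null pool 2 its spots lay between 42540 and 47304, above all spots of the other arrays. Over both probes and all arrays, 9 to 10 spots were used and their coefficient of variation was 1.69% to 3.75%. The high level of null pool 2 rests on a single pool and array, and its cause was not tested.

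Nppb, the gene of BNP, was lower than the 75th percentile in all wild-type pools and above it in all Arid3b-null pools. Probe A_51_P426195 gave 0.72, 2.06, 0.46 and 0.58 in Arid3b-null pools, against -0.66, -0.73, -0.63 and -0.54 in wild-type pools. The wild-type values were narrow and the null values were wide through pool 2. The mean was 0.96 ± 0.75 in Arid3b-null pools and -0.64 ± 0.08 in wild-type pools (SD, n = 4 each), a difference of 1.59 ± 0.33 (SE). Without null pool 2 the difference was 1.22, and null pool 2 alone was 6.51-fold over the wild-type mean.

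The other Nppb probe, A_52_P559955, read 0.68, 2.07, 0.54 and 0.59 in Arid3b-null pools, against -0.71, -0.79, -0.74 and -0.51 in wild-type pools. Its difference was 1.66 ± 0.32 (SE), or 3.16-fold, and 1.29 (2.45-fold) without null pool 2. The 2 Nppb probes therefore differed by less than the spread between null pools. Pool 2 was not raised for Nppb in wild type, where it was the lowest pool on both probes, whereas it was the highest wild-type pool for Nppa.

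**Figure D1:**
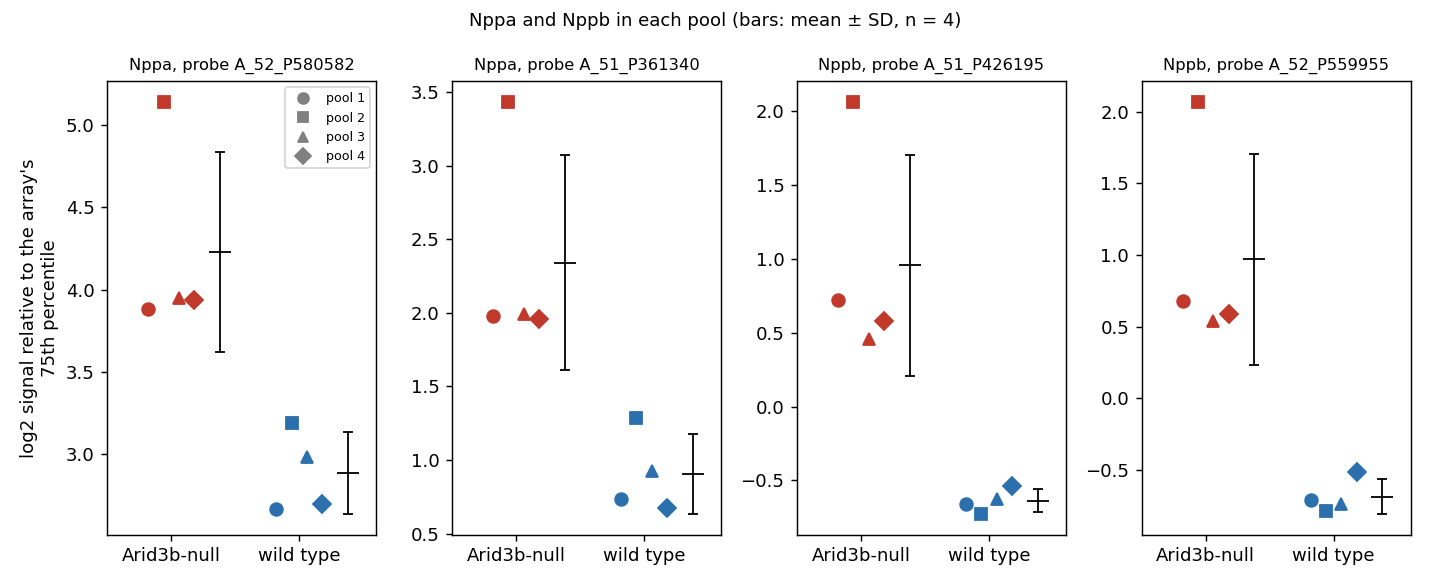
Log2 signal relative to the array's 75th percentile for the 4 probes of Nppa and Nppb, with Arid3b-null pools left and wild-type pools right in each panel, 1 point per pool, and the mean ± SD (n = 4) as a bar. All null points lie above all wild-type points in each panel, and null pool 2 (square) lies far above the other null pools.

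Nppc, the gene of CNP, overlapped between the genotypes only through Arid3b-null pool 2. Its levels were -4.30, -3.83, -4.48 and -4.53 in Arid3b-null pools, against -3.97, -3.55, -3.92 and -4.12 in wild-type pools. The mean was -4.29 ± 0.32 in Arid3b-null pools and -3.89 ± 0.24 in wild-type pools (SD, n = 4 each), a difference of -0.40 ± 0.18 (SE). Pool 2 was the highest pool of each genotype here as well, and with null pool 2 left out the difference was -0.55. The other null pools all lay below every wild-type pool, and each null pool lay below the wild-type pool of its number. The probe was well above background on all 8 arrays, but the difference was -0.17 with other background correction and quantile scaling.

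Corin, the protease of the heart muscle surface that cuts the ANP precursor, had levels of -3.30, -3.82, -2.96 and -3.36 in Arid3b-null pools, against -3.34, -3.72, -3.25 and -3.83 in wild-type pools. The groups overlapped, and null pool 2 was the lowest null pool. The difference was 0.18 ± 0.20 (SE), smaller than its error. It was 0.33 without null pool 2, 0.04 without null pool 3, 0.08 without wild-type pool 4, 0.11 without wild-type pool 2, 0.27 without wild-type pool 3, and -0.03 on slide 1 alone.

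The receptor genes overlapped between the genotypes as well. Npr1, the receptor of ANP and BNP, was well above background only in Arid3b-null pool 4 (-4.50) and wild-type pool 3 (-5.64), so no difference is given for it. Npr2, the receptor of CNP, had -1.54, -1.84, -1.67 and -1.89 in Arid3b-null pools on probe A_51_P518940 (chr4:43664832-43664891), against -2.08, -2.25, -1.80 and -1.99 in wild-type pools. Its lower null pools lay below the highest wild-type pool, and the difference was 0.30 ± 0.12 (SE). Here and on A_52_P489373 each null pool lay above the wild-type pool of its number, but not on the remaining Npr2 probe. The other Npr2 probes differed by 0.13 ± 0.12 and 0.17 ± 0.32 (SE), the second of them being above background on 3 of the 4 wild-type arrays.

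Npr3, the clearance receptor, which lacks a cyclase domain, had -0.40, -0.68, -0.38 and -0.36 in Arid3b-null pools on the probe printed above, against -0.41, -0.83, -0.47 and -0.64 in wild-type pools. Pool 2 was the lowest of each genotype, and the other null pools lay close together. Here and on the other Npr3 probes, each null pool lay above the wild-type pool of its number, in places by very little. The difference was 0.13 ± 0.12 (SE), and the other Npr3 probes gave 0.19 ± 0.10 and 0.11 ± 0.13. On the first probe it was 0.21 without null pool 2, 0.05 without wild-type pool 2 and 0.04 with arrays scaled to their medians. Null pool 2, so high for Nppa and Nppb, was thus not above the other null pools for Corin or for this Npr3 probe.

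**Figure D2:**
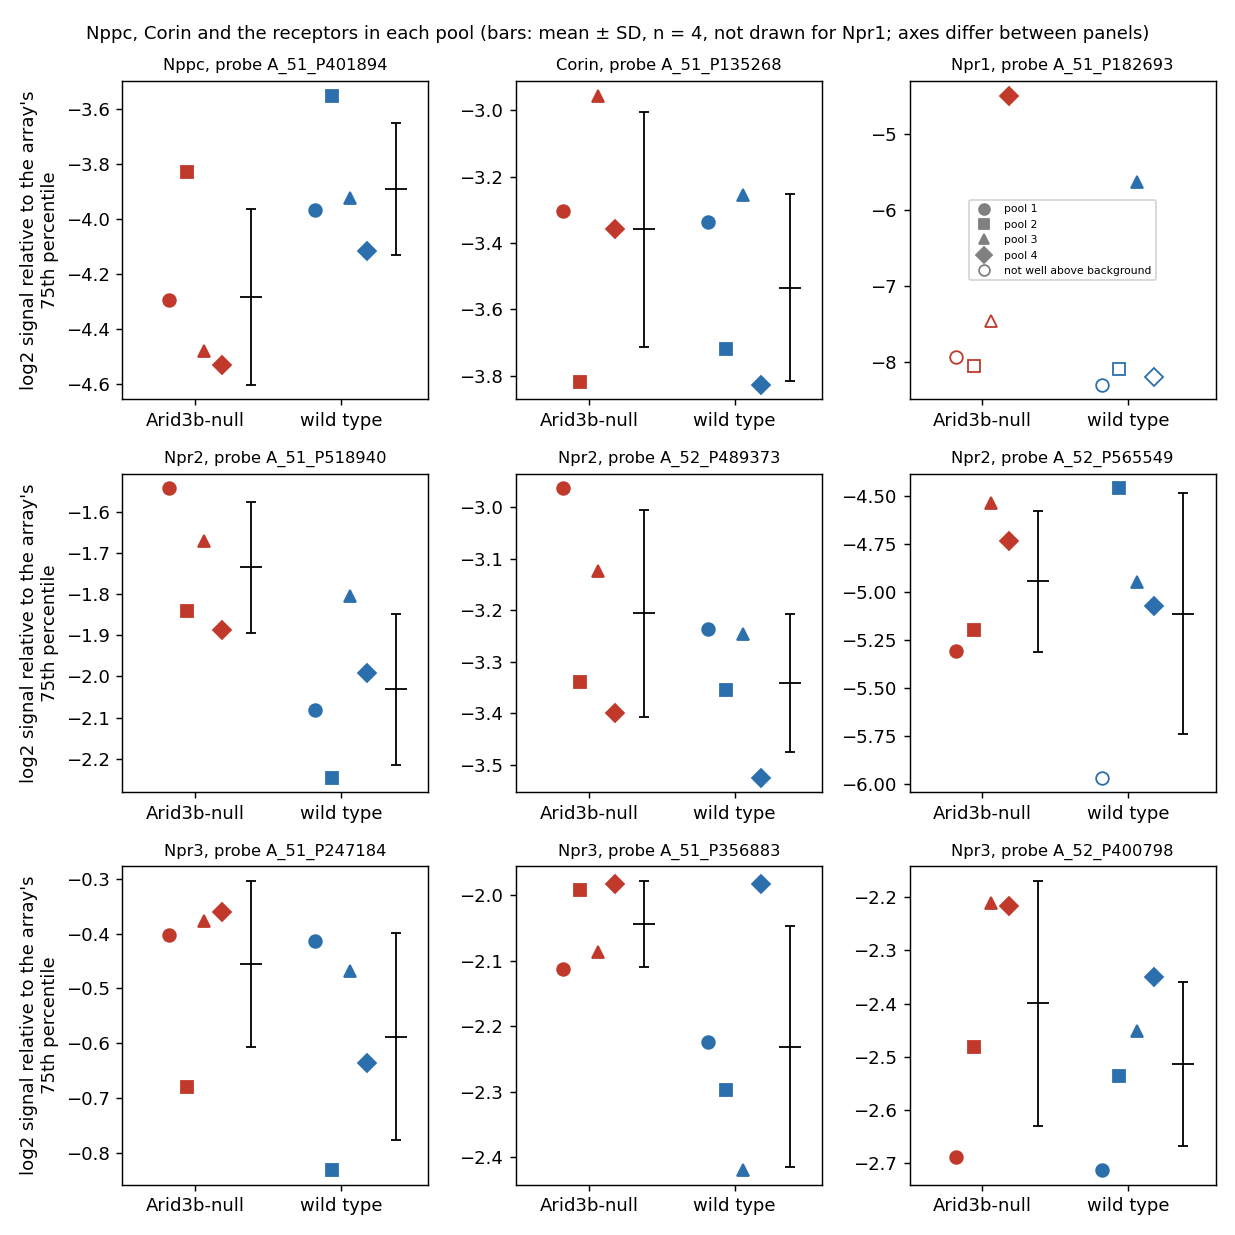
Log2 signal relative to the array's 75th percentile for the 9 probes of Nppc, Corin, Npr1, Npr2 and Npr3, with Arid3b-null pools left and wild-type pools right, and the mean ± SD (n = 4) as a bar except for Npr1. Open points are not well above background. The genotypes overlap in every panel, and in the Npr1 panel 1 null and 1 wild-type pool are filled.

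Counted over genes, 2 of the 6 members tested (Nppa and Nppb) had Arid3b-null and wild-type values that do not overlap, while 16.1% of all genes did, 8.08% with the null pools above and 8.06% with the null pools below. With limma's test and Benjamini-Hochberg adjustment over all genes, 4.20% of genes changed at an adjusted p under 0.05, 2.85% higher and 1.35% lower in Arid3b-null pools. The median difference over all genes was -0.01. Arid3b itself was at 36.1%, 34.5%, 35.1% and 54.2% of its wild-type mean in null pools 1 to 4, a difference of -1.35 ± 0.15 (SE, limma adjusted p = 0.0058). The sources used here do not say how the allele was changed, nor where the Arid3b probe lies relative to that change.

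Slide 1 held pools 1 and 2 of each genotype and slide 2 the others. Within slide 1 the difference between the genotypes was 1.58 for Nppa and 2.09 for Nppb, and within slide 2, which does not hold null pool 2, it was 1.10 for each of them. The null effect on slide 2 minus that on slide 1 was -0.48 ± 0.57 for Nppa and -0.98 ± 0.55 for Nppb (SE), and 0 of 6 members passed limma's interaction test (adjusted p = 0.9999 for each, 0.00585% of genes called, 0 of the 6 at an unadjusted p under 0.05). Between the slides over both genotypes, 0 of 6 members passed either, while 12.4% of genes did, and Nppc came nearest with -0.35 ± 0.14 (SE, limma adjusted p = 0.148). It was the single member with an unadjusted p under 0.05 in that comparison, where 27.6% of all genes had one. On each slide the null arrays took positions 3 and 4 and the wild-type arrays positions 1 and 2, so position and genotype cannot be told apart.

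Cardiomyocyte markers were looked at beside the peptides, since heart muscle makes ANP and BNP. Of 20 genes 19 were measured, including Tnnt2 and Actc1 of the contractile fibre, and none was called in either direction by limma. Of the 19 genes 18 had a positive difference and 1 a negative one. An unadjusted p under 0.05 was found for 6, where 20.7% of all genes had one. The median difference of these markers was 0.21, and 0.12 with arrays scaled to their medians. The mean level of the markers per pool was 1.88, 1.99, 1.84 and 1.73 in Arid3b-null pools, against 1.66, 1.55, 1.68 and 1.62 in wild-type pools. These list means do not overlap, but the lowest null mean (1.73) lay close to the highest wild-type mean (1.68). Null pool 2 was again the highest, 0.37 above the wild-type mean. The smallest p was that of Pln, the inhibitor of the calcium pump, at 0.72 ± 0.18 (SE, limma adjusted p = 0.0717). The limma fit blocked by replicate number called Myh7 at 0.35 (adjusted p = 0.0248) and Nebl at 0.32 (adjusted p = 0.0368). That fit called 2343 of all 17099 genes, against 718 in the main fit.

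The peptides can be set beside this list pool by pool, as a description, since they were chosen for a large difference. The deviation of Nppa from wild type minus that of the cardiomyocyte list was 0.75, 1.89, 0.85 and 0.95 in null pools 1 to 4, and that of Nppb was 1.11, 2.34, 0.88 and 1.12. The part that the amount of heart muscle per embryo had in the peptides' difference was not tested.

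**Figure D3:**
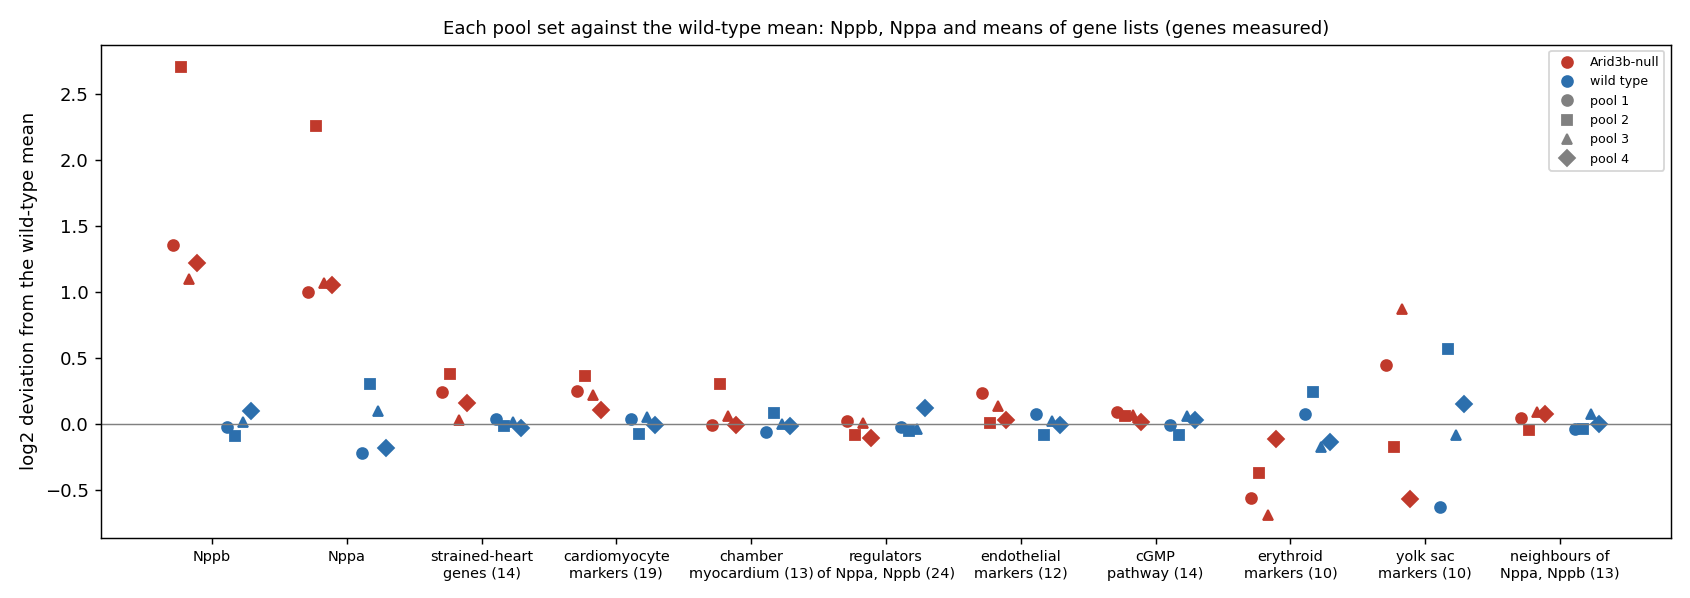
Log2 deviation of each pool from the wild-type mean for Nppb, Nppa and the mean of 9 gene lists, with Arid3b-null pools left of wild-type pools. The null points of Nppb and Nppa lie between 0.998 and 2.70, the null list means between -0.69 (erythroid markers) and 0.87 (yolk sac markers).

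Genes that rise beside Nppa and Nppb when the adult heart is strained were also read. Of 15 such genes 14 were measured, and 1 rose and 0 fell, where 4.20% of all genes were called. Of the 14 genes 6 had an unadjusted p under 0.05 by limma, where 20.7% of all genes did, and the median difference was 0.20. The gene that rose was Ankrd1, a muscle ankyrin-repeat protein of the contractile fibre and nucleus, with 2.90, 2.82, 2.49 and 2.49 in Arid3b-null pools, against 2.02, 1.94, 2.02 and 1.82 in wild-type pools. Its difference was 0.72 ± 0.12 (SE, limma adjusted p = 0.0207), or 1.65-fold, and every null pool lay above every wild-type pool. The call was lost with any 1 wild-type pool left out, at differences of 0.68 to 0.75. Acta1, skeletal actin, had 0.43 (limma adjusted p = 0.0717), and Ccn2, a secreted matrix protein, had 0.61 (limma adjusted p = 0.0687). In the fit blocked by replicate number, which called 2343 of all 17099 genes, Ccn2 had 0.60 (limma adjusted p = 0.0389). It had a usable reading well above background on 3 of the 4 null arrays. Xirp1, Fhl1, Fhl2 and Rcan1 had differences of -0.10 to -0.02.

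Genes of the chamber muscle were read next. Of 14 genes 13 were measured, 1 rose and 1 fell (4.20% of all genes were called), and the median difference was 0.12. The median was 0.05 without null pool 2, 0.18 without null pool 1, 0.02 with arrays scaled to their medians and 0.04 unscaled. Gja5, the gap junction protein connexin 40 of chamber muscle and arteries, had -0.19, -0.26, -0.32 and 0.09 in Arid3b-null pools, against 0.48, 0.49, 0.37 and 0.49 in wild-type pools. Its difference was -0.63 ± 0.10 (SE, limma adjusted p = 0.0197), opposite in sign to Nppa, with which it is often used to mark the chambers. Its other probes differed by -0.16 and -0.34, and the call was lost with the mean of the probes (-0.37), with null pool 3 left out (-0.58) and with any 1 wild-type pool left out (-0.66 to -0.61). Dkk3, a secreted glycoprotein of the Dickkopf family, rose by 0.41 ± 0.08 (SE, limma adjusted p = 0.0309), a call lost with null pool 1 or 3 or any 1 wild-type pool left out (0.38 to 0.43). Myl2 and Myl7, myosin light chains of the ventricle and the atrium, had 0.10 and 0.22 and were not called.

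Transcription factors known to act on Nppa or Nppb were measured for all 24 genes of that list. None rose and 1 fell, where 4.20% of all genes were called. Of the 24 genes 5 had an unadjusted p under 0.05 by limma, where 20.7% of all genes did, and the median difference was 0.06. The gene that fell was Heyl, a Notch-responsive repressor, with -2.02, -2.36, -2.01 and -1.72 in Arid3b-null pools, against -1.07, -0.90, -0.87 and -1.11 in wild-type pools. Its difference was -1.04 ± 0.14 (SE, limma adjusted p = 0.0110), its second probe gave -0.80, and no single pool's removal ended the call. Gata4, Nkx2-5 and Tbx5, activators of Nppa in the heart, had -0.07, 0.16 and 0.07. The repressors Tbx2 and Tbx3 had -0.09 and 0.06, and no gene of either set was called. Gata4 had a usable reading well above background on 3 of the 4 wild-type arrays, and 0.02 in the fit blocked by replicate number. Gata6 (0.25), Tbx20 (0.27) and Nr2f1 (-0.25) had an unadjusted p under 0.05 by limma but were not called. Zfpm2 at 0.41 and Myocd at -0.39 were not called either. Over the list 15 differences were positive and 9 negative. Jarid2, a chromatin protein that holds Nppa down in the developing heart, had 0.37 ± 0.08 (SE, limma adjusted p = 0.0537). The adjusted p became 0.0293 in the limma fit blocked by replicate number, which called 2343 of all 17099 genes.

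The rest of the cGMP pathway was not called in any gene. Of 16 genes 14 were measured, 2 of them had an unadjusted p under 0.05 by limma (20.7% of all genes), and their differences ran between -0.27 and 0.26 with a median of 0.12. Gucy1a1, a subunit of the soluble guanylyl cyclase that answers nitric oxide, had the smallest p, at 0.18 ± 0.06 (SE, limma adjusted p = 0.169). Furin and Pcsk6, proteases that process peptide precursors, had 0.05 and 0.14. Mme, the peptidase neprilysin, had 0.09. The phosphodiesterases Pde2a, Pde3a, Pde5a and Pde9a, which break down cyclic nucleotides, had 0.26, 0.16, -0.27 and 0.03. The cGMP-dependent kinases Prkg1 and Prkg2 had 0.25 and -0.22.

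**Figure D4:**
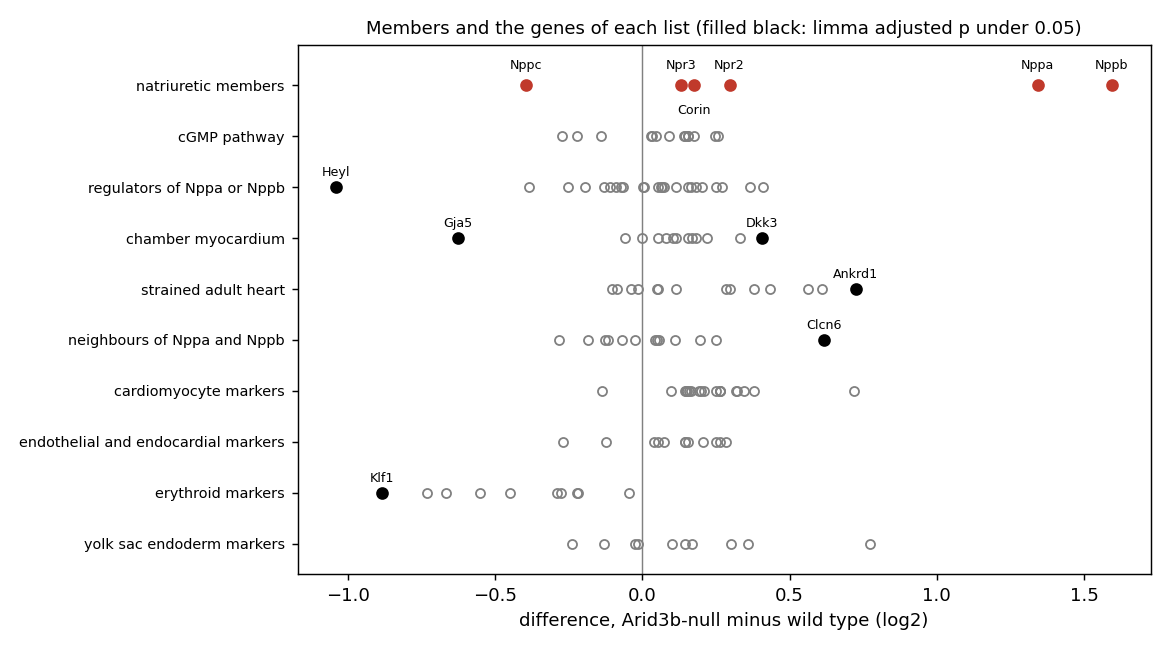
Difference, Arid3b-null minus wild type (log2), of 6 members (red, not tested) and of each gene of the 9 lists (open grey, not called by limma, filled black, adjusted p under 0.05). Nppa and Nppb lie at 1.34 and 1.59, beyond all genes of the lists, whose highest value is 0.77.

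Markers of other tissues were read in the same fit. Endothelial and endocardial markers were measured for all 12 genes, with none called, 2 at an unadjusted p under 0.05 by limma (20.7% of all genes), and a median of 0.14. When blocked by replicate number, the fit called Tie1 at 0.28 and Cldn5 at -0.27 (limma adjusted p = 0.0379 and 0.0303). So blocked, it called 2343 of all 17099 genes. Erythroid markers, measured for all 10 genes, all had negative differences with a median of -0.37 and 5 at an unadjusted p under 0.05, and their list means were 1.27 to 1.85 in Arid3b-null pools, against 1.79 to 2.20 in wild-type pools. Klf1, the master regulator of red cell genes, fell by 0.88 ± 0.18 (SE, limma adjusted p = 0.0377). Its call was lost with any 1 pool left out except null pool 4 (-0.95 to -0.76), and Epb42 at -0.67 joined it in the fit blocked by replicate number (limma adjusted p = 0.0497). Yolk sac endoderm markers, 10 of 10 measured, had none called, 0 at an unadjusted p under 0.05 by limma, and a median of 0.12, which was -0.19 without null pool 3, -0.08 without wild-type pool 1, 0.01 without null pool 1, 0.21 without null pool 2, 0.29 without wild-type pool 2 and 0.43 without null pool 4. List means of the yolk sac markers ran from -1.93 to -0.49 in Arid3b-null pools and from -1.99 to -0.80 in wild-type pools. The part of these tissues in the peptides' difference was not tested.

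Nppb and Nppa are neighbours on chromosome 4, and the next protein-coding gene beyond Nppa is Clcn6, a chloride and proton exchanger of endosomes. Of 15 genes around them 13 were measured, 1 rose and 0 fell (4.20% of all genes were called), with a median difference of 0.04. Clcn6 was the gene that rose, with -3.12, -3.10, -3.25 and -3.28 in Arid3b-null pools, against -3.69, -3.97, -3.79 and -3.76 in wild-type pools. All null pools lay above all wild-type pools, and null pool 2 did not stand out as it did for Nppa and Nppb. The difference was 0.62 ± 0.09 (SE, limma adjusted p = 0.0132), or 1.53-fold, lost as a call with wild-type pool 4 left out (0.63), with other background correction (0.21) and in the deposited value table (0.33). On the other side of Nppb, Plod1 had 0.25 and Mfn2 had -0.28, neither of them called. The protein-coding gene next to Nppb on that side, 2510039O18Rik, was not in the list, nor was Fv1 farther out. Plod1 was called in the fit blocked by replicate number (limma adjusted p = 0.0499), where 2343 of all 17099 genes were called.

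The promoters of Nppb and Nppa are shown because all null pools lay above all wild-type pools for both neighbours. They are the 250 bases before the RefSeq start of each gene on GRCm38.p6, on the plus strand, at chr4:147985650-147985899 for Nppb and chr4:148000472-148000721 for Nppa. Capitals mark AGATAA and TGATAA, forms of the motif read by GATA factors, and the TATA box letters TATAAA.
Nppb promoter: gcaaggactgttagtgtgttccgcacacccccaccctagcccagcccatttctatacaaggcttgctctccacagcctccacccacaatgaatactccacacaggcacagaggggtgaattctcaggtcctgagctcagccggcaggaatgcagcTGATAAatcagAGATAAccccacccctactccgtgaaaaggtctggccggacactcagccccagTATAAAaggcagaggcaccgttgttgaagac
Nppa promoter: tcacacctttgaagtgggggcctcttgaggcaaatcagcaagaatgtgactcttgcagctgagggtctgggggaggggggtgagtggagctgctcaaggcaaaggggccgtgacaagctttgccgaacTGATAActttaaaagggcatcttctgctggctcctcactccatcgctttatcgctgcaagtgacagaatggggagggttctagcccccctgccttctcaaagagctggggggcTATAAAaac
Nppb holds TGATAA at -95 to -90, AGATAA at -84 to -79 and TATAAA at -31 to -26 from its start. Nppa holds TGATAA at -122 to -117 and TATAAA at -9 to -4. Both strands were searched, and the matches do not overlap. Neither window holds the letters ACGTG or an exact CArG box, CCWWWWWWGG with W as A or T. Near matches were not counted, such as ctttaaaagg, which follows TGATAA in the Nppa window. Over 32851 promoters of the same length, TGATAA was found in 7.94%, AGATAA in 9.99%, TATAAA in 12.4%, ACGTG in 16.6% and the CArG box in 1.47%. These matches describe the letters only.

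The genes whose profile over the 8 pools was nearest to that of Nppa were found by the root mean square difference of log2 levels, each gene centred on its own mean. Genes with clone, predicted or accession names, genes without a value in every pool and the members were left out of this ranking. Nppb stood at 0.25 from Nppa, where the median over the genes ranked was 0.81. Nearer still were Fn3k (0.16), Rgs17 (0.17), Phyhd1 (0.20), Fxyd1 (0.20) and Lrrc51 (0.21). Nearest to Nppb were Ppil6 (0.20), Fn3k (0.28), Slc7a3 (0.29), Fxyd1 (0.29) and Stag3 (0.29), against a median of 0.95. Null pool 2 was the highest pool for each of them.

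Fn3k, a kinase that repairs sugar-modified proteins, had -2.82, -1.90, -2.78 and -2.71 in Arid3b-null pools, against -4.29, -3.70, -3.98 and -3.86 in wild-type pools. Fxyd1, phospholemman, a regulator of the sodium pump in heart and muscle, had -2.39, -0.77, -2.16 and -2.31 in Arid3b-null pools, against -2.96, -2.99, -3.01 and -3.25 in wild-type pools. Both are among the 5 nearest to Nppa and to Nppb, and in both the null pools lay above the wild-type pools with pool 2 on top. Ppil6 was well above background on 4 null and 2 wild-type arrays, and the other genes named were so on all 8. The likeness was found over the same pools that show the genotypes' difference, so it describes these pools.

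The Nppa and Nppb differences kept their direction when the arrays were treated in other ways. Under 20 alternative treatments of the arrays, Nppa ran from 1.04 without null pool 2 to 1.58 on slide 1 alone, and Nppb from 1.19 on slide 2 alone to 2.09 on slide 1 alone. On slide 2 alone the brighter Nppb probe was A_52_P559955, so 1.19 stands there in place of the 1.10 given above. No alternative brought either difference to 0 or below.

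**Figure D5:**
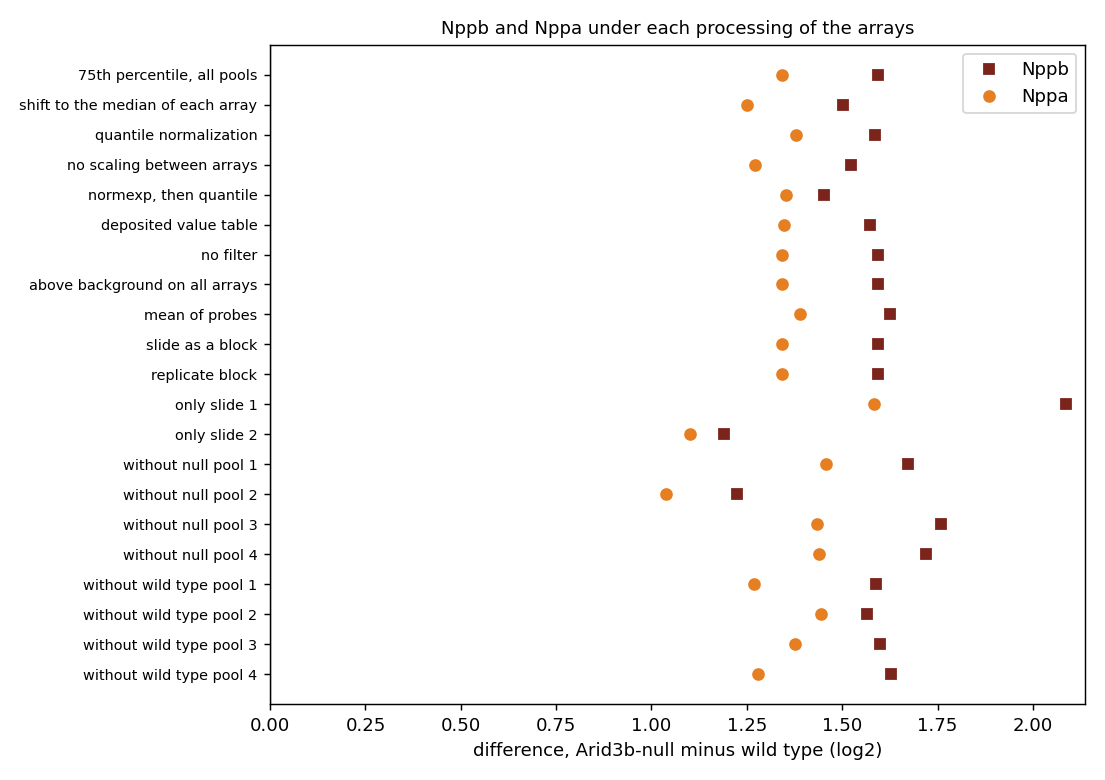
Difference, Arid3b-null minus wild type (log2), of Nppb and Nppa under the 75th percentile scaling of all pools (top) and under 20 alternative treatments. Every point lies above 1, and the points without null pool 2 and for slide 2 alone are the lowest.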

How the data were processed

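RNA of 4 Arid3b-null and 4 wild-type pools was read on 1-colour Agilent arrays, with the genotype taken from the sample titles. Per the file headers, spots were extracted with Feature Extraction 9.5.3.1 and probe positions are on mm7. The deposited spot values are processed intensity, already background-subtracted per the file headers. The deposited value table holds log2 values of the authors, of 27108 probes with a median of 9.44 to 9.47 per array. They correlate at 0.988 or more with the log2 intensities, and the sources used here do not state their scaling.

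Of 45018 spots per array, 1639 controls and 87 to 175 outlier spots were left out. Spots were averaged per probe as log2 intensity minus the array's 75th percentile, which was 1280 to 1703. Of 41174 probes, 59.98% to 64.1% were well above background per array, and 25555 were so on at least 4 of the 8 arrays and were kept. The brightest kept probe stood for a gene. Names were updated through RefSeq (GRCm38.p6): 22951 probes matched by accession, 6659 by symbol and 3109 by an older name, and 8455 kept the file's name. limma 3.58.1 in R 4.3.3 was fitted over 17099 genes with Benjamini-Hochberg adjustment and a threshold of 0.05, after a test on simulated data. The number of arrays limits the precision.

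The members and lists were chosen with earlier results of these data known, so the members' difference between genotypes has no test. Named are all members, Arid3b, up to 4 called genes of each list (otherwise the gene of smallest p), and the 5 nearest profiles of Nppa and of Nppb. Further list genes were picked as examples with their values known. Same-numbered pools deviated together over 17099 genes (r = 0.557, 0.635, 0.522 and 0.426). They also share a slide, and pools of different numbers were not compared, so whether the numbers pair the samples was not tested. The main fit holds genotype only, and the fit blocked by replicate number is given beside it. Alternatives changed the scaling, background correction, filter, choice of probe, slide and replicate blocks, and pools.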

Additional observations from a re-analysis of the deposited data

Results flagged for a closer look

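In groups of 4 pools, a pool was marked where its gap to the next pool, as a share of the group's range, was over Dixon's critical value. Of 82 groups examined 12 were marked, where chance marks about 1 in 20 independent groups. These groups are not independent, since they hold several probes of a gene, members chosen with their values known and genes picked for their likeness to Nppa and Nppb.

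Arid3b-null pool 2 was marked as the highest null pool on all 4 probes of the heart peptides. It stood at 5.14 and 3.44 on the Nppa probes, against 3.95 and 1.99 for the next null pool. On the Nppb probes it stood at 2.06 and 2.07, against 0.72 and 0.68 for the next null pool. The same pool was the highest for Fn3k (-1.90) and Fxyd1 (-0.77), genes chosen for their likeness to Nppa and Nppb, and the lowest for the Npr3 probe A_51_P247184 (-0.68).

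Npr1 was marked in null pool 4 (-4.50) and in wild-type pool 3 (-5.64), the arrays on which its probe was well above background. Arid3b was higher in null pool 4 (2.48) than in the other null pools, and Rbp4, a yolk sac marker, was lower in that pool (2.69). Gja5 was lowest in wild-type pool 3 (0.37). No cause was tested for any of these.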

How the results depend on the processing

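Differences of Nppa, Nppb, Nppc, Npr3 and Corin stayed within 1 SD (of the pools within a genotype) of their reported values under every alternative run. Nppc was not in the value table. Its difference still ran from -0.55 without null pool 2 to -0.17 with normexp correction and quantile scaling. That of Npr2 was 0.47 on slide 1 alone and 0.12 on slide 2 alone. The count of changed genes, 718, was 204 with a median shift, 157 without scaling, 462 in the value table, 164 without the filter, 1370 with the slide as a block and 2343 with the replicate block (same-numbered pools paired). On slide 1 or slide 2 alone it was 0 by limma, with 1879 and 2864 genes at an unadjusted p under 0.05. With 1 pool left out it ran from 93 to 628. The share of called genes that were higher in Arid3b-null pools, 67.8%, was 52.0% with a median shift, 79.6% without scaling and 83.5% without the filter.

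With the median shift, list medians were 0.0248 for the cGMP pathway, -0.0315 for the transcription factors, -0.0496 for the neighbours, 0.117 for cardiomyocyte markers and 0.0538 for endothelial markers. The cGMP pathway had 0.0448 without scaling, 0.0446 with normexp correction and 0.0411 in the value table. The neighbours had -0.0296 without scaling, -0.0237 in the value table, and -0.0669 to 0.0725 with 1 pool left out. Chosen after seeing the data, calls per list under the replicate block were 2 each for the 24 transcription factors, 14 strained-heart genes and 13 neighbours measured. They were also 2 each for the 19 cardiomyocyte, 12 endothelial and 10 erythroid markers. That block called 2343 of all 17099 genes, and it ended no list gene's call. The erythroid call was 0 without null pool 2 (Klf1 lost). The median shift and the unscaled values ended the calls of Ankrd1 (0.63 and 0.65), Clcn6 (0.53 and 0.55) and Dkk3 (0.32 and 0.34), and the unscaled values those of Gja5 and Klf1. Calls of Ankrd1, Dkk3, Gja5 and Klf1 were also lost without the filter, where more genes were tested. Of the members, Corin turned to -0.03 on slide 1 alone, and no named list gene turned direction. With 1 pool left out the yolk sac median ran from -0.19 to 0.43. Signal not above background on most arrays limits Npr1.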
